A study of Mus musculus with 8 samples.

Results

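The 4 bisulfite (BS) libraries of neural progenitor cells (NPCs), 2 with an shRNA against Tet3 (shTet3) and 2 with a non-targeting shRNA (shScr), were compared at single CpGs, promoters and gene bodies. They are 4 of the 8 libraries of the study, chosen by their labels as those converted with bisulfite alone, and the other 4 are oxidative bisulfite (oxBS) libraries of the same DNA, used here as a check. All groups came from the mouse ES cell line A2lox.cre, carrying a doxycycline-inducible shRNA, expanded on feeder cells in medium with serum and LIF and then differentiated towards neural cells. Both shRNA groups received doxycycline at 2 µg/ml for 5 days, so that the agent is shared and the shRNA is the labelled difference. The labels give the target of each shRNA and a replicate number, but not whether the replicates came from separate clones, differentiations or dishes. Errors and p-values here therefore measure at most the spread between these libraries, and for the calls of single CpGs only counting error. The files hold methylation calls and no expression values. The knockdown of Tet3 and the neural identity of the cells could therefore not be checked from them, and a cell state change cannot be told apart from a changed mixture of cells.

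In mammals, DNA methyltransferases place 5-methylcytosine (5mC) mainly at CpGs, where dense promoters of active genes are usually free of it and gene bodies, repeats and silenced germline promoters usually carry it. TET3 is one of the TET dioxygenases, which oxidise 5mC to 5-hydroxymethylcytosine (5hmC) and further products on the way to an unmodified base. Bisulfite leaves both 5mC and 5hmC as C, so the BS level of a CpG, the percent of its calls read as C, is the sum of 5mC and 5hmC. In an oxBS library the 5hmC is oxidised first and is then read as T, so that its level is 5mC alone.

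The stretches below come from named genes and hold 3 or more called CpGs, given on the forward strand of the mouse genome NCBIM37 (mm9). Capitals mark each CpG called as changed between the shRNAs by the rule given with the first counts, and lower-case cg marks a CpG that was not called or not covered. The first set shows promoter stretches in which 3 or 4 CpGs had a lower BS level in shTet3.
Hoxb5 promoter, chr11:96163354-96163508: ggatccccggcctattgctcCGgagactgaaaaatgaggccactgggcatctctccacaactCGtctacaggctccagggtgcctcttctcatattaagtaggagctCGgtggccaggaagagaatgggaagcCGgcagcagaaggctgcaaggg
Gm10020 promoter, chr15:52309785-52309880: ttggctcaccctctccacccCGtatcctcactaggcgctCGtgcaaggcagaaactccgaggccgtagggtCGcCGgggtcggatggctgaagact
Ddo promoter, chr10:40349434-40349596: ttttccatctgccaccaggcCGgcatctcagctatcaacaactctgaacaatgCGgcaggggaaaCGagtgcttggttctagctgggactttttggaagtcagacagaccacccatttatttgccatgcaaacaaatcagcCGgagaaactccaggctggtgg
Kncn promoter, chr4:115557353-115557435: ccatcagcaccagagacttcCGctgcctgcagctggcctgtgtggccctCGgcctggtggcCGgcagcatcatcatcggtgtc
Tcl1 promoter, chr12:106461248-106461335: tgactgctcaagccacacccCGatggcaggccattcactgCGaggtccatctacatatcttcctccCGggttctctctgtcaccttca

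The second set shows stretches with 5 or more CpGs called higher in shTet3: the promoter of the imprinted retrogene Mcts2, an intron of Commd1 that lies beside the promoter of the imprinted retrogene Zrsr1, and part of the Arhgap9 gene. At the Mcts2 promoter the groups overlapped, with shScr 2 the lowest library at 26 of 26 CpGs. At the called CpGs of Arhgap9 the groups overlapped in oxBS.
Mcts2 promoter, chr2:152512590-152512883: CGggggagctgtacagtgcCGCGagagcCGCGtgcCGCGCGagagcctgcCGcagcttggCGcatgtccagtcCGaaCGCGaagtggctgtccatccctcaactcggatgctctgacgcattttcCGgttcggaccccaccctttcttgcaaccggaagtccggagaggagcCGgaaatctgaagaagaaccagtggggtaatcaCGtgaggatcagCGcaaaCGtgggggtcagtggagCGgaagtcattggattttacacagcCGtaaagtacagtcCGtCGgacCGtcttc
Commd1 gene body, chr11:22871942-22872138: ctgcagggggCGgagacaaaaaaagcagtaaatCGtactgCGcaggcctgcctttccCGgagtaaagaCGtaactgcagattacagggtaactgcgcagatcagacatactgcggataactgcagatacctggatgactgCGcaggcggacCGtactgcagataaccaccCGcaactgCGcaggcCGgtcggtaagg
Arhgap9 gene body, chr10:126763522-126763689: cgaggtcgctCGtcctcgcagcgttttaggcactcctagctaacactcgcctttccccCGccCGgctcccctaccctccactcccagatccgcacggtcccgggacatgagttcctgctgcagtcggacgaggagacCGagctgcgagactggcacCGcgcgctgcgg

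Of the 757812 CpGs listed for every library, 659124 were covered by 10 or more calls in all 4 BS libraries and entered the tests. The BS libraries held between 42516767 and 61865967 calls, with median coverages per CpG between 44 and 52. The 2 controls were less alike than the 2 knockdown libraries: they differed at an unadjusted p below 0.05 at 21.6% of CpGs, against 10.9% for the shTet3 libraries. Control library 2 was the deeper one and had the higher mean level over CpGs, so results are also given against each control. Counted over all calls at the listed CpGs, the order of the controls turned, with 26.0% methylated in shScr 1 and 20.7% in shScr 2. The same share was 19.8% in shTet3 1 and 19.1% in shTet3 2.

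BS levels were lower after Tet3 KD across the captured genome. The mean BS level over CpGs was 26.5% in shScr 1 and 31.3% in shScr 2, against 22.0% in shTet3 1 and 22.3% in shTet3 2. Both shTet3 libraries lay below both controls, and the difference between group means was -6.77 percentage points (pooled SD 2.40, n = 2 per group). The shTet3 mean was 76.6% of the control mean. Weighted by reads, the difference was -3.88 points. The gap between the controls was wider than the gap from shScr 1 to either shTet3 library, and the difference was -4.37 points against shScr 1 alone and -9.17 points against shScr 2 alone. With 2 libraries against 2, the smallest p a two-sided exact permutation test can give is 0.33, which is what it gave. The oxBS libraries of the same DNA differed by -6.71 points, so the difference in summed 5mC and 5hmC was nearly that in 5mC alone.

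Single CpGs were called hypo-DMPs or hyper-DMPs when a likelihood ratio test of a logistic model on the calls gave a Benjamini-Hochberg q below 0.01 and the pooled level differed by over 10 points. By this rule 91285 CpGs were hypo-DMPs (13.8% of those tested) and 409 were hyper-DMPs (0.0621%). The test takes its error from the number of calls alone, and PCR reads without molecular identifiers are not separate molecules, so only counting error is covered. Asked of the libraries instead, 172026 CpGs (26.1%) had both shTet3 levels below both control levels and 12903 (1.96%) had both above. When the spread between replicates entered the same model as an overdispersion-corrected F test, no CpG passed in either direction. At an unadjusted p below 0.05 in this test and a pooled difference over 10 points, 12194 were lower and 14 higher. With 2 libraries per group this test could hardly reach a q below 0.01 at the usual depth, so its count of 0 decides nothing. Without shScr 2 the rule called 32919 hypo-DMPs, and without shTet3 1 it called 56509.

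The hypo-DMPs were CpGs of high level. Their median level was 73.1% and 83.5% in the controls and 49.4% and 50% in shTet3, with a median pooled difference of -25 points. At 90.2% of them the groups did not overlap, and at 71689 of the 91285 shScr 2 was the highest library. They came in runs: among hypo-DMPs with a tested neighbour within 100 bp, 58.6% had a nearest neighbour that was also a hypo-DMP, beside 13.5% over all CpGs. Of the 88890 that were also covered in the oxBS libraries, 96.7% differed in the same direction there, beside 53.3% of all CpGs, and 48.7% were called there by the same rule. The share over all CpGs includes many near 0%. Of CpGs over 40% in the control oxBS libraries, called or not, 94.6% had a lower BS level in shTet3, so the shared direction does not set the hypo-DMPs apart.

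The size of the difference followed the genomic region (the plot of levels by region). Each CpG was placed in the first class that held it, in the order promoter (from 1 kb before to 0.5 kb after the transcription start site, TSS, of a protein-coding transcript), coding exon, UTR, intron and intergenic. Promoter CpGs had 4.64% and 5.39% in the controls and 3.83% and 3.94% in shTet3, a difference of -1.13 points (pooled SD 0.380, n = 2), and 1.86% of them were hypo-DMPs. Intergenic CpGs, at the other end, had 47.4% and 57.4% against 38.8% and 38.2%, a difference of -13.9 points (pooled SD 4.99), with 28.0% hypo-DMPs. The groups did not overlap in either class, but the distance between the controls was again large beside the difference.

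Between these ends, introns had 48.0% and 55.8% in the controls against 39.8% and 40.4% (-11.8 points) and coding exons had 47.0% and 55.2% against 40.2% and 42.0% (-9.997 points). UTRs had 42.0% and 47.8% against 34.9% and 36.3% (-9.33 points). In each of the 5 classes both shTet3 libraries were below both controls, and as a share of the control level they kept between 73.5% (intergenic) and 80.4% (coding exon). As a share of the control level the loss varied less over the regions than it did in points.

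**Figure D1:**
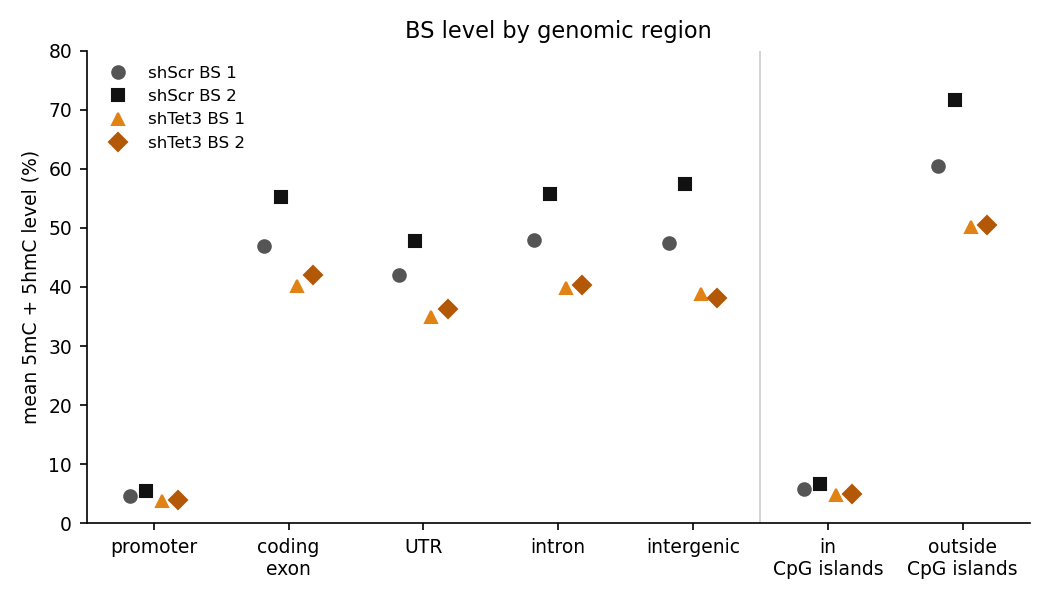
Mean BS level (5mC plus 5hmC, percent of calls) over the CpGs of each genomic region and of predicted CpG islands, with 1 point for each of the 4 BS libraries. Both shTet3 points lie below both shScr points in each class, and the distance is 1.13 points at promoters and 15.7 points outside islands.

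CpG islands, predicted from the sequence in windows of 500 bp, gave the same division. In islands the level was 5.75% and 6.61% in the controls and 4.80% and 5.02% in shTet3 (-1.27 points), while outside islands it was 60.4% and 71.6% against 50.1% and 50.4% (-15.7 points, pooled SD 5.62). Promoter CpGs outside islands differed by -9.67 points, beside -0.541 points in promoter islands and -3.28 points in islands outside promoters. By chromosome, autosomes ranged from -5.79 points on chromosome 11 to -7.19 points on chromosome 5, and the X chromosome had -6.77 points. The 91 CpGs of the Y chromosome differed by -13.6 points, but by 1.34 points in the other direction against shScr 1 alone.

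Along genes the difference was smallest at the TSS and grew with distance. In the 250 bp before a TSS the levels were 3.39% and 3.89% in the controls and 2.77% and 2.84% in shTet3 (-0.836 points). From 20 to 50 kb downstream they were 60.3% and 70.6% against 49.8% and 51.7% (-14.7 points), and beyond 50 kb on either side the difference was -16.2 points. The profile was not symmetric near the TSS. Between 0.75 and 1 kb the difference was -5.69 points upstream and -3.48 points downstream. Between 1 and 1.5 kb it was -7.29 points upstream and -5.64 points downstream. In each distance class both shTet3 libraries were below both controls.

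**Figure D2:**
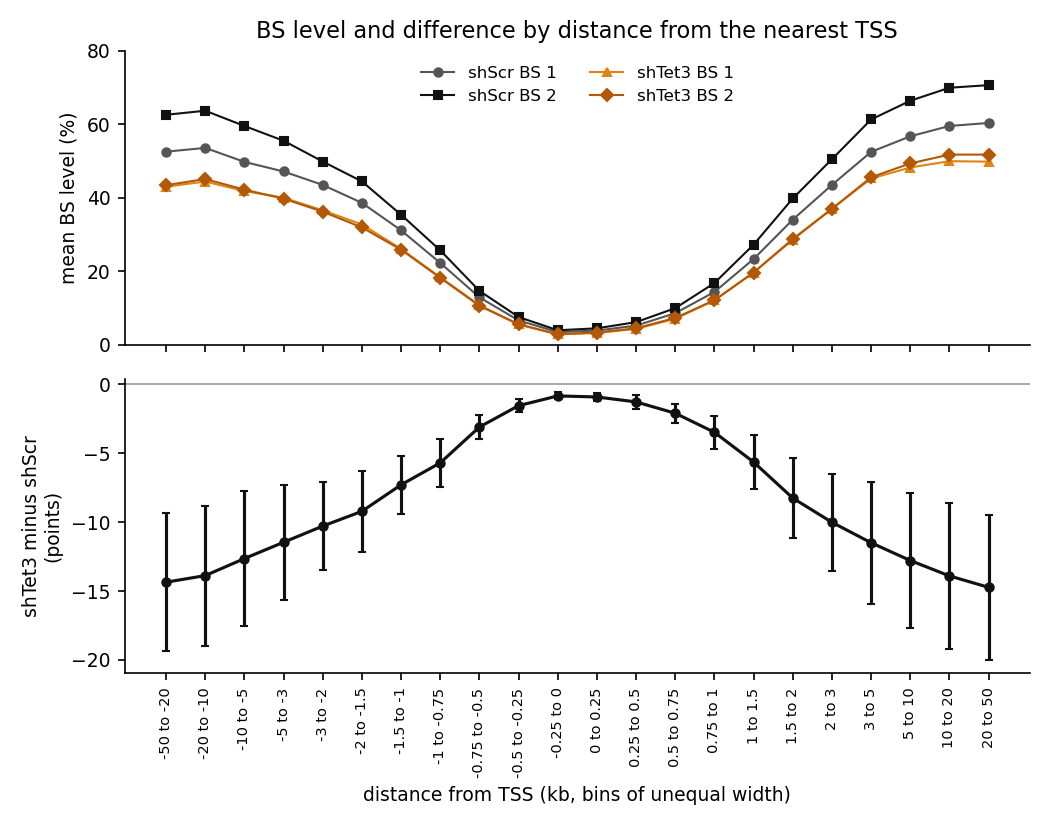
Mean BS level of the 4 libraries (upper panel, percent) and the difference between shTet3 and shScr means with the pooled SD of the libraries (lower panel, points, n = 2 per group) by distance from the nearest TSS in kb, negative upstream. The trough of levels at the TSS is also where the difference is smallest, -0.836 points just upstream, against -14.7 points at 20 to 50 kb downstream.

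The control level of a CpG was the feature that the difference followed most plainly. Grouped by the mean of the control BS libraries, CpGs under 10% differed by -0.0474 points, those between 40 and 50% by -12.2 points and those between 70 and 80% by -19.3 points, the largest of the 10 classes. Above that the difference shrank again to -16.9 points between 90 and 100%. Because this grouping uses the control libraries of the comparison themselves, a control level that was high by sampling alone is also counted as loss, so the CpGs were grouped a second time by the control oxBS libraries. The curve kept its shape: -0.238 points under 10%, -14.5 points between 40 and 50%, -19.1 points between 60 and 70% and -12.8 points above 90%. In the last class the levels were 87.2% and 93.0% in the controls and 73.5% and 81.1% in shTet3.

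**Figure D3:**
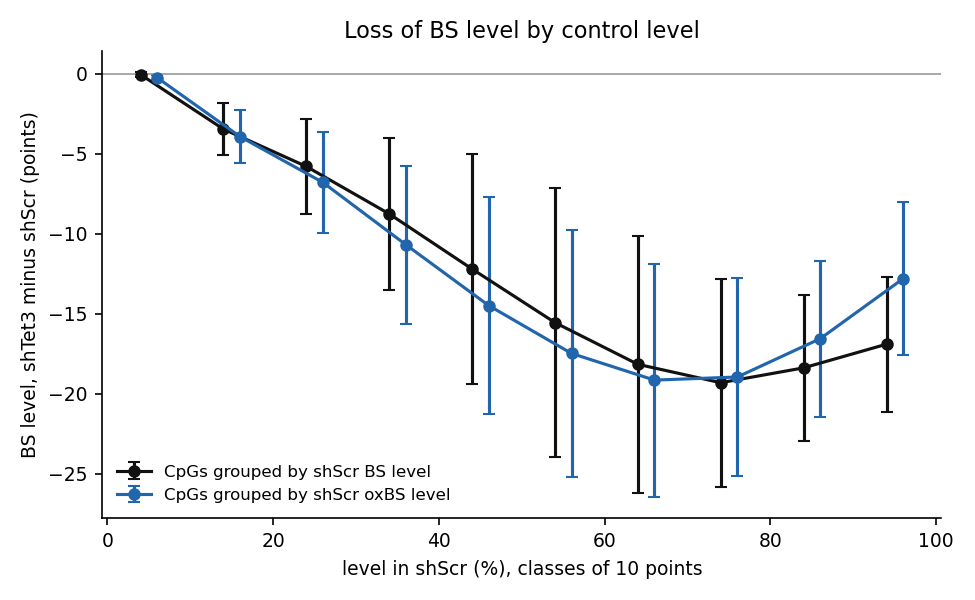
Difference in BS level between shTet3 and shScr means (points) for CpGs in 10 classes of control level, grouped by the control BS libraries (black) or the control oxBS libraries (blue), with the pooled SD of the libraries as error bars (n = 2 per group). Both curves are near 0 below 10%, reach about -19 points between 60 and 80% and are smaller again above 90%.

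Among CpGs of high control level, the difference still varied with the region and with CpG density. Control levels were not equal within this set, with mean BS levels of 79.8% for intergenic and 84.5% for coding exon CpGs. Level was therefore not separated from region or density. Among CpGs over 70% in the control oxBS libraries, intergenic CpGs differed by -18.3 points, introns by -16.5, UTRs by -15.2, promoters by -15.0 and coding exons by -14.7 points. Methylated promoter CpGs were thus about as far below the controls as methylated exon CpGs. By density, the difference was -18.2 points where 500 bp held 1 to 5 CpGs, -16.5 points with 11 to 20, -14.2 points with 21 to 40 and -6.83 points in the 571 CpGs with 41 or more. The last class had 70.5% and 81.4% in the controls and 65.6% and 72.6% in shTet3, so there the groups overlapped. CpGs within the MspI site CCGG, where the fragments of a reduced representation library begin, differed by -16.9 points and the others by -16.3 points.

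Highly methylated CpG islands were lower as a group. Taken as units with 5 or more CpGs, 538 of 13068 islands were over 70% in the control oxBS libraries. Their mean BS level was 76.1% and 86.4% in the controls and 64.9% and 68.2% in shTet3, and 413 of them (76.8%) had both shTet3 libraries below both controls, while none had both above. Over all islands the shares were 27.9% below and 6.34% above. Islands over 40% differed by -13.4 points away from promoters (983 islands) and by -12.0 points where they touched one (203 islands).

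CpGs of higher level in shTet3 were few and of low level. The median of the 409 hyper-DMPs was 9.59% and 10% in the controls and 31.3% and 27.3% in shTet3, and 65.5% of them lay in CpG islands, close to the 62.0% of all tested CpGs and beside 8.96% of hypo-DMPs. At 305 of them the groups did not overlap, and at 199 shScr 2 was the lowest library. Of the 391 also covered in oxBS, 52.2% differed in the same direction there, beside 14.6% of all CpGs, and 36 were called there. The median oxBS difference at these 391 was 0.589 points, beside a median pooled BS difference of 18.2 points over the 409. The share over all CpGs includes many that were lower in shTet3 or near 0%. Among those with a tested neighbour within 100 bp, 17.3% had a nearest neighbour called too, beside 0.0654% of all CpGs. Leaving out shScr 1 gave 900 hyper-DMPs, of which 144 were among the 409, and leaving out shScr 2 gave 1991, of which 176 were.

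The single CpGs with the widest separations rested on 10 to 30 calls per library. The widest was at chr9:60986762, an intergenic position 233238 bp from the nearest protein-coding TSS, that of Gm10655. It was read as C in 13 of 15 and 9 of 11 control calls (86.7% and 81.8%), and in 1 of 16 calls in each shTet3 library (6.25%). The 95% Wilson intervals of shScr 2 and of either shTet3 library, which cover counting error only, were 52.3% to 94.9% and 1.11% to 28.3%. The position was chosen for its separation, so the intervals only describe its depth. Its oxBS difference was -43.4 points, and the 1 other tested CpG within 100 bp differed by 21.5 points in the other direction.
CpG flank, chr9:60986742-60986783: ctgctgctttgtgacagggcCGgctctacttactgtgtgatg

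At chr12:57397565, intergenic and 49316 bp from the TSS of Mbip, 76.9% and 75% of calls were C in the controls, against 0 of 30 calls, which allows a level of up to 10%, and 18.2% in shTet3. In the oxBS control library 1 this position was at 13.6%, far from its BS level. At chr4:126872333, in the promoter of Dlgap3, which encodes a scaffold protein of the postsynaptic density, the levels were 94.1% and 75% against 6.67% and 27.3%. The 6 tested CpGs within 100 bp of it differed by -40.9 points on average, so that position did not stand alone in the BS libraries. In oxBS it had 88.2% and 40% in the controls against 63.2% and 36.8% in shTet3, a difference of -14.1 points. There the groups overlapped, and shScr 2 had 5 calls.
CpG flank, chr4:126872313-126872354: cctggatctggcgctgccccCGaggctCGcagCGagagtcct

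The widest separations upward were less firm. A CpG in an intron of Sfi1 (chr11:3067617) had 36.4% and 30% in the controls and 88.2% and 58.3% in shTet3, and a CpG in an intron of Maml3 (chr3:51848654), a coactivator of Notch signalling, had 10% and 14.3% against 44.4% and 68.8%. An intergenic CpG 38084 bp from the TSS of Cxcr3 (chrX:98891524) had 33.3% and 10% against 65% and 70%. In none of the 3 did oxBS go the same way, with differences of -40.4, -13.8 and -24.2 points, the first 2 with fewer than 10 calls in at least 1 oxBS library. The 14 tested CpGs within 100 bp of the X-chromosomal one differed by -13.3 points, against its own direction.

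Promoters were tested as units with limma, which takes its error from the libraries. Of 12653 protein-coding promoters with 3 or more tested CpGs, 0 (0.0%) were called lower and 0 (0.0%) higher at a Benjamini-Hochberg adjusted p below 0.05, the smallest adjusted p being 0.755. At an unadjusted p below 0.05, limma had 628 promoters lower (4.96%) and 174 higher (1.38%). Every promoter named from here on is therefore a description of 4 libraries. Both shTet3 libraries were below both controls at 3709 promoters (29.3%) and above both at 838 (6.62%). The median difference was -0.130 points, and most promoters were unmethylated in all libraries. The median was -0.00354 points against shScr 1 alone and -0.166 points against shScr 2 alone.

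Counted by called CpGs, 813 promoters (6.43%) held 3 or more hypo-DMPs and 7 (0.0553%) held 3 or more hyper-DMPs, while 87 (0.688%) held 1 or more. Leaving out shScr 2, shTet3 1 or shTet3 2 brought the first count to 389, 426 and 538. The share with both shTet3 libraries below both controls grew with the control oxBS level of the promoter. It was 21.8% of 9941 promoters up to 10%, 50.03% of 1453 between 10 and 40%, 67.8% of 618 between 40 and 70%, and 81.9% of 421 above 70%. In the top 2 classes no promoter had both shTet3 libraries above both controls, and the medians were -13.9 and -15.9 points. Against shScr 1 alone these medians were -9.73 and -10.6 points.

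The largest negative differences among promoters with 3 or more hypo-DMPs and separate groups were in short stretches of 3 to 7 CpGs. Gm10020, a predicted gene on chromosome 15, had 68.1% and 64.98% in the controls and 23.4% and 23.0% in shTet3, a difference of -43.3 points (limma SE 4.88). Its controls were within 4 points of each other and its shTet3 libraries within 1 point. In the oxBS libraries the same CpGs differed by -13.1 points. Eif2s3y, a Y-linked gene for a subunit of a translation initiation factor, had 47.9% and 64.3% against 12.8% and 16.7% (-41.3 points), but in oxBS 23.4% and 60.9% against 27.2% and 11.6% (-22.7 points), where the groups overlapped. Kncn, which encodes the ciliary protein kinocilin, had 70.7% and 80.8% against 32.1% and 39.0% (-40.2 points), over 3 CpGs, and an oxBS difference of -15.4 points.

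Hoxb5, a homeobox gene of anterior-posterior patterning (ENSMUSG00000038700, chr11:96163909-96167434), had 75.5% and 74.3% in the controls and 37.3% and 34.8% in shTet3, a difference of -38.8 points (limma SE 5.03, adjusted p 0.755). All 4 tested CpGs of its promoter were hypo-DMPs, they lay at -535 to -422 bp from the TSS, and at each of them the groups did not overlap. The oxBS difference was -25.03 points. Ddo, for D-aspartate oxidase, which degrades an agonist of NMDA receptors (chr10:40349817-40401653), was as tight, with 78.1% and 79.8% against 41.2% and 44.7% (-36.0 points, SE 5.01) and all 4 CpGs called. Its oxBS libraries differed by -26.6 points.

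Among the other promoters of this group the controls were further apart. Hepacam, a glial adhesion molecule, had 71.9% and 89.8% against 40.95% and 47.2%, with an oxBS difference of -18.8 points. Asb2, a substrate receptor of a ubiquitin ligase, had 56.1% and 81.1% against 28.1% and 37.5%, with an oxBS difference of -21.2 points. B230216G23Rik, 4931417E11Rik and 1810033B17Rik differed by -38.2, -36.6 and -36.0 points, and their oxBS differences were -10.9, -33.7 and only -4.18 points.

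**Figure D4:**
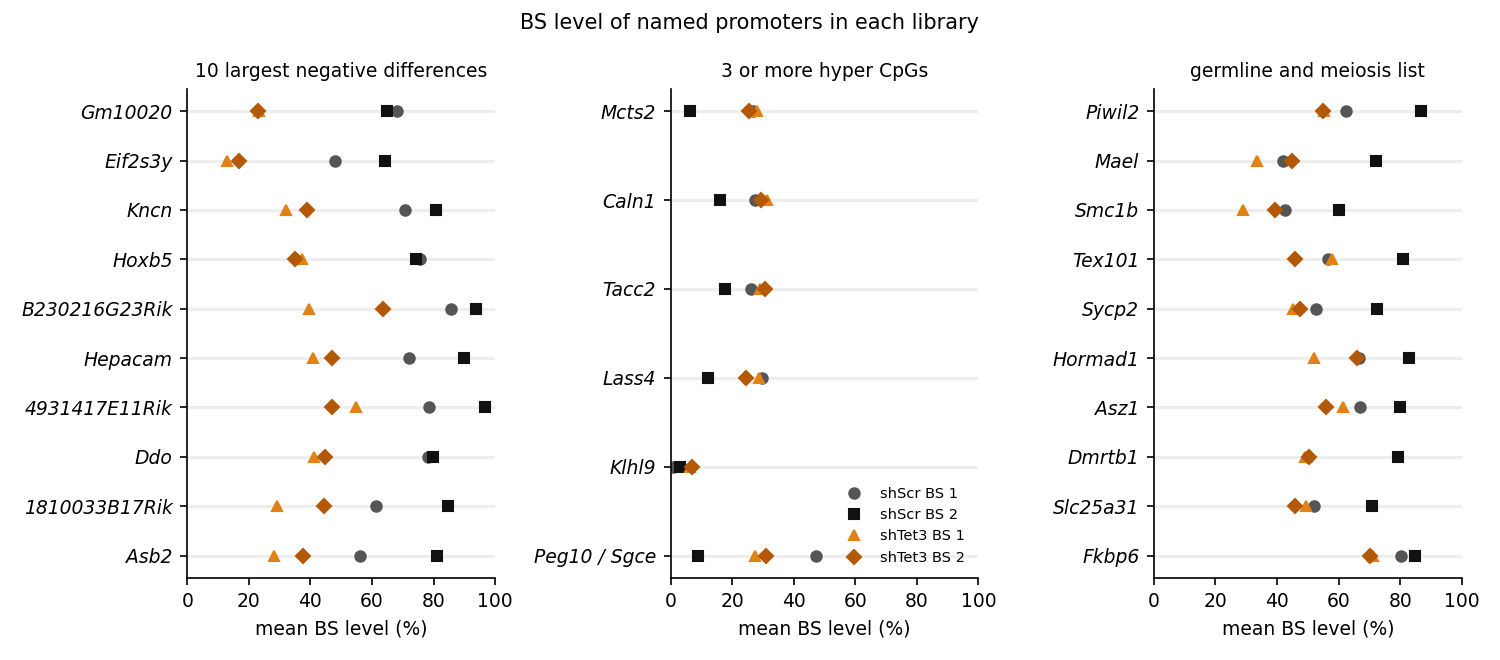
Mean BS level (percent) of named promoters, with 1 point for each of the 4 BS libraries: the 10 largest negative differences (left), the promoters with 3 or more hyper-DMPs (middle) and 10 members of the germline and meiosis list (right). In the left panel the groups are apart in each row, in the middle panel shScr 2 lies apart to the left in 5 of 6 rows, and in the right panel shScr 2 is the highest library in each row.

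Promoters with 3 or more hyper-DMPs were 7 genes in 6 places, because Peg10 and Sgce share 1 promoter region. Mcts2, a paternally expressed imprinted retrogene whose promoter is methylated on the maternal copy (ENSMUSG00000042814, chr2:152512884-152513676), had the most, 24 hyper-DMPs of 26 tested CpGs. Its levels were 26.7% in shScr 1 and 6.35% in shScr 2, against 28.1% and 25.4% in shTet3, a difference of 10.2 points (limma SE 8.01, adjusted p 0.756). The groups overlapped: shScr 1 was level with the shTet3 libraries, and shScr 2 was the lowest library at 26 of 26 CpGs. At 8 of the 24 hyper-DMPs both shTet3 libraries were above both controls. The oxBS libraries repeated the picture over these 24 CpGs, with 28.4% and 8.09% in the controls and 31.5% and 22.5% in shTet3.

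The Peg10 and Sgce promoter, also of an imprinted pair, had 47.2% and 8.94% in the controls and 27.4% and 30.9% in shTet3. The controls bracketed the shTet3 libraries, shScr 2 was the lowest at 13 of 13 CpGs, and at none of the 5 hyper-DMPs were the groups apart. In the oxBS libraries they were apart over the same promoter, with 29.9% and 9.85% in the controls and 43.6% and 31.2% in shTet3, a difference of 17.5 points beside 1.07 points in BS. Lass4, a ceramide synthase gene, had 29.7% and 12.02% against 28.6% and 24.5%, again with shScr 1 the highest. Zrsr1, an imprinted gene for an RNA-binding protein, had 24.3% and 10.9% against 17.7% and 19.8% and no called CpG, with shScr 2 the lowest library at 36 of 43. Its oxBS levels were 26.5% and 7.20% against 24.7% and 21.4%, a difference of 6.20 points beside 1.12 points in BS, again with shScr 1 the highest.

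At 3 promoters with 3 or more hyper-DMPs the groups were apart. Klhl9, an adaptor of a ubiquitin ligase used in mitosis, had 0.655% and 3.02% in the controls and 6.22% and 6.80% in shTet3 over 44 CpGs (4.67 points, SE 1.24, unadjusted p 0.023). Its 4 hyper-DMPs had 0% and 5.01% in the controls and 14.2% and 16.7% in shTet3, and at 27 of 44 CpGs both shTet3 libraries were above both controls. The oxBS difference was 3.34 points. Tacc2, for a centrosomal protein, had 26.0% and 17.8% against 29.1% and 30.7% (7.96 points, oxBS 6.75). Caln1, for a neuronal calcium-binding protein, had 27.4% and 15.9% against 31.4% and 29.3%, but it held 2 hypo-DMPs beside its 3 hyper-DMPs and its oxBS difference was -6.51 points. The Caln1 difference was 2.9997 points against shScr 1 alone and turned to -16.3 points when 20 or more calls were asked for.

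**Figure D5:**
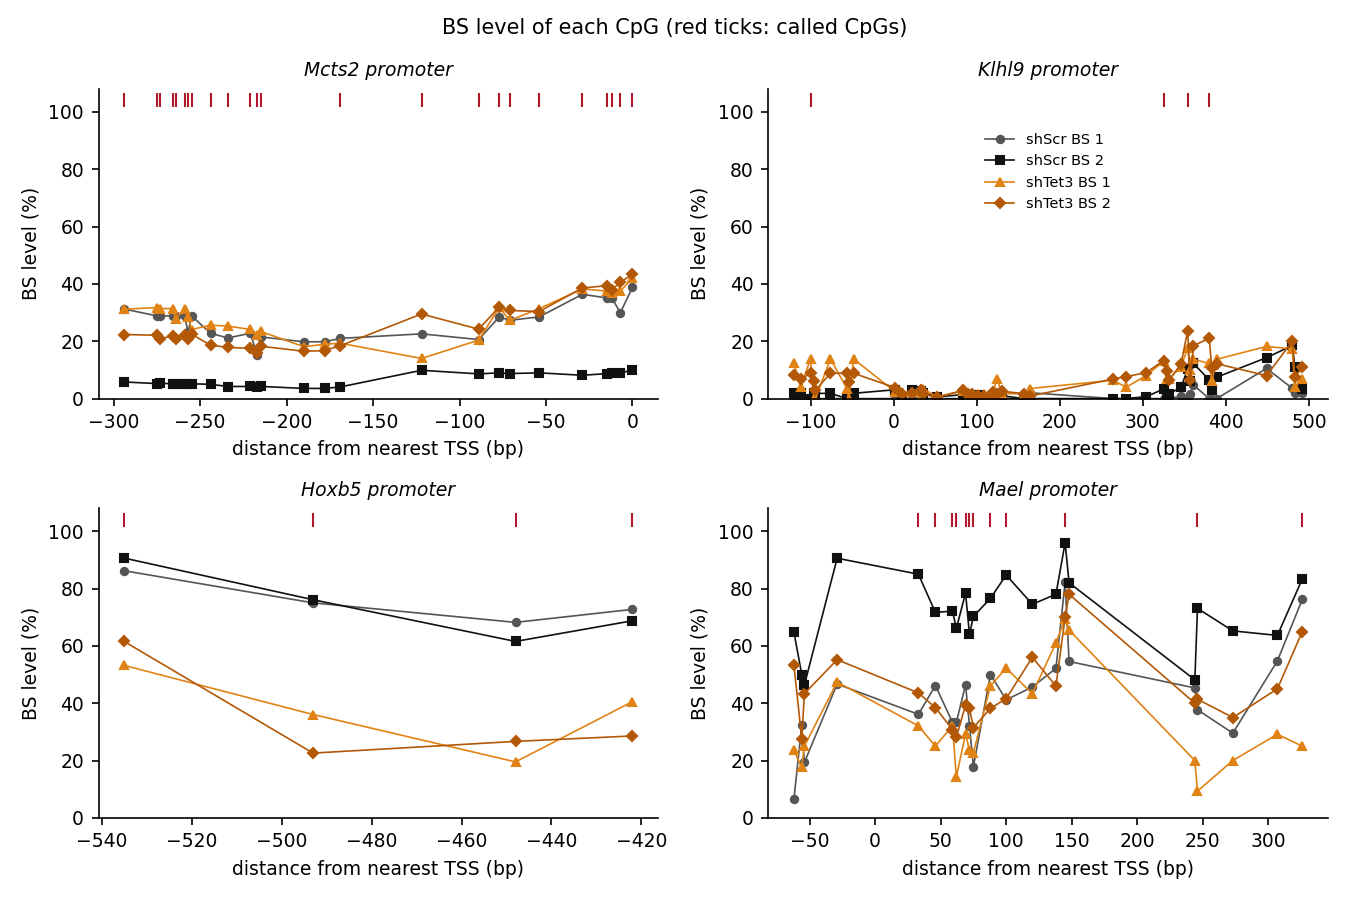
BS level (percent) of each tested CpG in the Mcts2, Klhl9, Hoxb5 and Mael promoters by distance from the nearest TSS (bp), with 1 line for each library and red ticks at called CpGs. At Mcts2 shScr 2 alone lies below the other libraries, at Mael shScr 2 alone lies above, and at Hoxb5 both controls lie above both shTet3 libraries.

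Gene bodies differed far more widely than promoters. Counting the CpGs of a gene outside any promoter, 8825 genes had 5 or more. Their median difference was -12.6 points, -7.52 points against shScr 1 and -17.5 points against shScr 2, and 6743 (76.4%) had both shTet3 libraries below both controls, while 59 (0.669%) had both above. limma called 0 (0.0%) lower and 0 (0.0%) higher, with a smallest adjusted p of 0.182, and had 2376 lower (26.9%) and 8 higher (0.0907%) at an unadjusted p below 0.05. Without shScr 1, limma called 4628 lower and 17 higher, and without shScr 2 it called 0, with 1532 lower and 95 higher at an unadjusted p below 0.05. By called CpGs, 5146 gene bodies (58.3%) held 3 or more hypo-DMPs and 6 (0.068%) held 3 or more hyper-DMPs, while 146 (1.65%) held 1 or more.

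The largest negative differences among gene bodies were again at few CpGs. Zcchc16, a gene derived from a retrotransposon on the X chromosome, had 61.9% and 74.1% in the controls and 22.1% and 28.6% in shTet3 (-42.7 points, SE 8.86). Gpr116, an adhesion receptor known from the lung, had 84.8% and 86.2% against 44.7% and 50.2% (-38.1 points), and Mcf2, a guanine nucleotide exchange factor, had 76.9% and 79.6% against 43.6% and 40.01% (-36.4 points) with 8 of 10 CpGs called. In these 3 the groups were apart by over 30 points in BS. Their oxBS differences were smaller, at -20.9, -21.0 and -21.4 points. Krt13, an epithelial keratin, had 67.3% and 65.3% against 17.3% and 42.4%, with the shTet3 libraries further from each other than the controls were.

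Of the 6 gene bodies with 3 or more hyper-DMPs, only Commd1 had both shTet3 libraries above both controls, with 16.0% and 19.7% against 20.9% and 20.1% over 54 CpGs. Its 10 hyper-DMPs lay within the stretch printed above, beside the Zrsr1 promoter. There the means were 17.7% and 9.28% in the controls and 29.6% and 25.8% in shTet3, with shScr 2 the lowest at 10 of 10 CpGs and the groups apart at 9. The oxBS means over these CpGs were 14.3% and 14.0% against 25.8% and 23.9%, so that stretch differed in both kinds of library. At the 5 hyper-DMPs of Arhgap9, a GTPase-activating protein, the means were 7.10% and 17.9% against 23.8% and 30.8%, apart at each CpG, but in oxBS they were 9.72% and 23.3% against 14.3% and 28.6%, which overlap.

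Genes were then described by function. None of the listed promoters or gene bodies was called by limma. Germline and meiosis genes, which are commonly methylated at their promoters in somatic cells, had the lowest median of the larger lists. Of 19 tested promoters (29 listed), 13 (68.4%) had both shTet3 libraries below both controls, beside 29.3% of all promoters. In 0 both were above, beside 6.62%, and 10 (52.6%) held 3 or more hypo-DMPs, beside 6.43%. Their median was -11.8 points. Promoters of any gene with a control oxBS level between 40 and 70% had a median of -13.9 points. Of these, 67.8% were below both controls, near the germline share, and 37.1% held 3 or more hypo-DMPs. That class had a median of 7 tested CpGs, so its count of hypo-DMPs is not like for like with the median of 20 at the germline promoters. The controls differed at these promoters: shScr 2 was above shScr 1 at all 19 and the median was -2.94 points against shScr 1 alone and -21.4 points against shScr 2 alone.

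Single germline promoters show this. Piwil2, which encodes a PIWI protein of transposon silencing, had 62.3% and 86.7% in the controls and 55.3% and 54.9% in shTet3. Mael, of the same pathway, had 41.8% and 72.0% against 33.4% and 44.8% with 12 of 22 CpGs called, and shScr 1 lay between the shTet3 libraries. Dmrtb1, a transcription factor of spermatogonia, had 49.96% and 79.3% against 49.2% and 50.5%. Fkbp6, needed for meiosis in males, had closer controls, at 80.2% and 84.7% against 71.3% and 70.1%.

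Pluripotency genes gave 15 tested promoters of 27 listed. Both shTet3 libraries were below both controls at 5 (33.3%, near the 29.3% of all promoters) and above at 0. The median was -2.38 points, -0.0128 points against shScr 1 alone and -1.84 points against shScr 2 alone. Tcl1, a coactivator of AKT signalling expressed in ES cells, had 58.4% and 79.8% in the controls and 40.1% and 35.9% in shTet3 (-31.1 points), with all 3 tested CpGs called and an oxBS difference of -15.1 points. The promoter of Pou5f1, the gene for OCT4, had 54.8% and 42.5% against 37.2% and 38.4% without a called CpG, and its oxBS difference was 0.288 points. Fgf4 had 9.12% and 8.20% against 4.77% and 6.27%, where 3 hypo-DMPs had 23.5% and 13.8% in the controls and 5.03% and 4.55% in shTet3. Esrrb, an orphan nuclear receptor, had 9.20% and 8.47% against 5.70% and 7.56% at the promoter and 45.3% and 50.5% against 35.2% and 34.5% in its body, where 18 of 78 CpGs were hypo-DMPs. Sox2, Klf2, Klf4 and Klf5 promoters were at most 1.12% in any library.

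Neural progenitor genes had 22 tested promoters, 5 with both shTet3 libraries below both controls (22.7%, beside 29.3% of all promoters) and 1 with 3 or more hypo-DMPs (beside 6.43%). Their median was -0.541 points, -1.53 points against shScr 1 alone and -0.108 points against shScr 2 alone. At 17 of them shScr 1 was above shScr 2, the reverse of the germline list. Pax6, a master regulator of the neural tube and eye, had 45.0% and 23.4% in the controls and 29.1% and 26.3% in shTet3, so that shScr 1 stood apart and the groups overlapped. Vim, the intermediate filament of progenitors, had 10.7% and 6.46% against 5.22% and 3.40%. Otx2 had 34.4% and 22.1% against 29.3% and 36.2%, with no called CpG.

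Neuronal genes had 14 tested promoters, 8 with both shTet3 libraries below both controls (57.1%, beside 29.3% of all promoters). Their median was -3.95 points, -2.79 points against shScr 1 alone and -2.47 points against shScr 2 alone. The median levels of these promoters were 11.6% and 10.8% in the controls. Promoters of any gene with a control oxBS level between 10 and 40% had a median of -4.39 points, and 50.03% were below both controls. Snap25, a SNARE protein of synaptic vesicle release, had 35.9% and 36.5% in the controls and 13.6% and 20.8% in shTet3 (-19.0 points), although 1 of its 10 CpGs was called. Neurod2, a transcription factor of neuronal differentiation, had 43.6% and 35.4% against 33.6% and 24.7% with 5 hypo-DMPs. Rbfox3, which encodes the neuronal marker NeuN, had 10.7% and 10.2% against 5.34% and 4.74% over 73 CpGs, and its 3 hypo-DMPs had 38.8% and 32.6% against 8.33% and 3.17%.

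Hox genes, the clustered regulators of body axis, had 33 tested promoters, 12 with both shTet3 libraries below both controls (36.4%, beside 29.3% of all promoters) and 5 with 3 or more hypo-DMPs (beside 6.43%), and a median of -1.07 points. Hoxd3 had the most called CpGs, 18 of 53, with 49.7% and 40.3% in the controls and 30.7% and 25.3% in shTet3 (-17.0 points, oxBS -16.8). Hoxd12 had 59.4% and 58.3% against 44.9% and 45.3%. Hoxb1 had 66.2% and 49.5% against 36.8% and 45.0%. The promoters of Hoxa4 and Hoxd8 were at most 0.117% in any library. Among 34 Hox gene bodies 18 had both shTet3 libraries below both controls (52.9%), a smaller share than the 76.4% of all gene bodies. Their median levels were 22.7% and 17.6% in the controls. Gene bodies of any gene between 10 and 40% in the control oxBS libraries were below both controls at 64.1%.

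Of the clustered protocadherins, neuronal adhesion molecules, 3 promoters and 8 gene bodies were tested, and 2 and 6 of them had both shTet3 libraries below both controls, beside 29.3% of all promoters and 76.4% of all gene bodies. Pcdha11, whose pooled promoter covers more than 1 start site, had 24.1% and 22.2% in the controls and 16.4% and 11.7% in shTet3 with 17 hypo-DMPs of 55 and 1 hyper-DMP. Pcdhb1 had 43.2% and 34.2% against 26.5% and 24.2%.

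Imprinted genes methylated on the maternal copy had 13 tested promoters, 3 with both shTet3 libraries below both controls and 2 above, beside 29.3% and 6.62% of all promoters. Their median was -0.333 points, -3.48 points against shScr 1 alone and 0.138 points, in the other direction, against shScr 2 alone. Nap1l5 had 43.4% and 57.5% in the controls and 41.1% and 34.9% in shTet3, Inpp5f had 9.80% and 8.67% against 12.1% and 11.6%, and Plagl1 had 39.5% and 62.0% against 62.7% and 57.5%. Snrpn had 31.2% and 24.9% against 26.2% and 20.01% without a called CpG, and Igf2r had 23.3% and 22.4% against 25.8% and 19.2%. Directions were thus mixed among maternally methylated promoters. Away from its promoter, the Peg10 body had 80.3% and 89.5% against 61.3% and 67.8% with 11 of 16 CpGs called. The 3 tested promoters on the paternal list had a median of -1.44 points, which was -5.30 points against shScr 1 alone and 1.08 points, in the other direction, against shScr 2 alone. Dlk1, a Notch ligand-like protein, had 31.9% and 37.0% against 22.7% and 30.6%.

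Genes of the DNA methylation machinery were nearly free of methylation at their promoters, with a median difference of -0.155 points over 16 promoters and 4 below (25%, beside 29.3% of all promoters). The exception in level was Tet1, whose 3 tested promoter CpGs had 63.6% and 84.8% in the controls and 38.3% and 64.2% in shTet3 with none called. Their gene bodies were below both controls at 13 of 13, beside 76.4% of all gene bodies, with a median of -10.96 points, beside -12.6 points. These bodies had median levels of 71.7% and 79.0% in the controls. Gene bodies of any gene above 70% in the control oxBS libraries were below both controls at 89.9%, with a median of -15.5 points. Tet3 itself had 0.956% and 1.40% against 0.357% and 0.740% over 14 promoter CpGs, and 84.3% and 93.7% against 69.2% and 75.9% over 60 CpGs of its body (-16.4 points), of which 26 were hypo-DMPs. Dnmt1, the maintenance methyltransferase, had 77.5% and 83.3% against 59.1% and 69.4% in its body.

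Promoters of genes that mark other cells a culture could hold were read in the same way. Glial genes had 5 of 10 promoters below both controls, beside 29.3% of all promoters, and a median of -9.62 points. Their median levels were 34.3% and 32.8% in the controls. Among promoters of any gene between 10 and 40% in the control oxBS libraries, 50.03% were below both controls and the median was -4.39 points. Gfap, the astrocyte filament, had 63.4% and 91.9% in the controls and 51.6% and 57.5% in shTet3, Aqp4, the water channel of astrocytes, had 61.2% and 69.8% against 57.7% and 36.3%, and Mbp, of myelin, had 41.4% and 44.3% against 31.3% and 34.0%. Endoderm and mesoderm genes had 4 of 11 below (36.4%) and a median of -1.90 points, -0.711 points against shScr 1 alone and -3.70 points against shScr 2 alone. Among them were Hand1 with 47.5% and 42.4% against 31.0% and 22.0%, and Myod1, the muscle determination factor, with 52.0% and 44.2% against 42.3% and 24.5% and 9 of 20 CpGs called. Of the 3 fibroblast promoters tested 1 was below, with a median of -0.489 points, -4.84 points against shScr 1 alone and 0.0824 points, in the other direction, against shScr 2 alone. Twist2 had 32.0% and 38.7% against 26.7% and 24.0%. Methylation of these promoters gives no share of cells, and the part of cell mixture in the results was not tested.

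Genes that the study examined for methylation and that are not described above were read last. They were picked on these samples, so their directions are no independent evidence. Slit1, a repulsive axon guidance ligand, had 24.9% and 31.8% in the controls and 20.3% and 20.7% in shTet3 at its promoter, with 7 hypo-DMPs of 42, all apart between groups, whose means were 26.2% and 35.5% against 12.3% and 13.9%. In the Slit1 body the levels were 65.3% and 72.6% against 51.6% and 47.4% (-19.5 points), with 29 of 74 CpGs called. The promoter of Wnt3a, a neural patterning ligand, had 10.6% and 12.04% against 8.46% and 8.06%, and that of the GTPase Rac3 10.8% and 9.61% against 7.33% and 8.13%, each with 1 hypo-DMP and no hyper-DMP.

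In others the controls were as far apart as the groups. Bdnf, a neurotrophin, had 16.5% and 9.95% in the controls against 10.4% and 9.25%, Wnt3 had 26.2% and 14.9% against 14.7% and 15.4%, Nr2e1 had 23.5% and 18.0% against 14.1% and 21.1%, and Runx1 had 1.55% and 6.74% against 1.80% and 1.87%. Nr4a1 had 14.1% and 7.57% against 8.09% and 10.999%, Dlx2 had 1.96% and 0.796% against 1.27% and 0.947%, and Fv1, which shares its promoter CpGs with Miip, had 15.2% and 11.3% against 22.2% and 8.63%. In these 7 promoters the groups overlapped. Fgfr1 and Acer2 each appear as 2 gene records. Those of Fgfr1 had between 0.0595% and 4.59% in any library, and those of Acer2 had 15.6% and 17.1% against 13.1% and 13.3% in one and 33.4% and 37.8% against 35.4% and 49.5% in the other.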

How the data were processed

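Reduced representation libraries were made from 100 ng of MspI-digested DNA, one portion of each sample converted with bisulfite alone and one oxidised first. Per the submitters' processing notes and the methods of the study, the authors used Trim Galore for trimming, Bismark for alignment to mm9 and methylKit tables for output (versions not given in the sources used here). They deposited, per CpG and library, the coverage as a raw count, and the calls read as C or T in percent. All listed positions had a coverage of 5 or more in all 8 libraries. Methylated calls were recovered as coverage times percent, which was whole at every CpG.

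CpGs with 10 or more calls in the 4 BS libraries were tested by a binomial likelihood ratio test (Python 3.11.15, numpy 2.4.6, scipy 1.17.1). Promoters and gene bodies of GENCODE vM1 protein-coding genes were tested on unweighted mean percent levels with limma 3.58.1 (R 4.3.3, eBayes with trend), adjusted over all regions. Scripts were tested on simulated data. Named promoters and gene bodies were the 10 and 5 largest differences in each direction among those with 3 or more called CpGs and separate groups, named CpGs the 3 largest, beside up to 3 members per list and genes the study names; further list members were added after their values were seen. The members and lists were chosen with earlier results of these data known. Alternatives covered coverage minimums, tests, promoter width, island definition, left-out libraries and oxBS. Oxidation spike-ins were not used here.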

Additional observations from a re-analysis of the deposited data

How the results depend on the processing

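Of the values that answer a comparison, 85 stayed within range under the alternatives and 22 moved. A change of sign was not scored for these values, and many of the 85 were limma counts that stayed at 0. The mean BS difference was -3.88 points when weighted by reads, and -9.17 to -4.37 points with 1 library left out. CpG islands differed by -3.41 points with 200 bp windows instead of -1.27, and CpGs under 10% by -0.238 points when grouped by oxBS instead of -0.0474. The overdispersion-corrected F test, which has little power with 2 libraries per group, called 0 hypo-DMPs and 0 hyper-DMPs. At its unadjusted p below 0.05 and a pooled difference over 10 points there were 12194 and 14. limma on the log2 ratio of methylated to unmethylated calls (pseudocount 1) called 4 gene bodies lower, those of Lin37, Ppp1r10, Aadat and Zcchc16. Promoters from 2 kb before to 1 kb after the TSS gave 1338 with 3 or more hypo-DMPs. The CpG near Cxcr3 reversed in oxBS (-24.5 points pooled). The cause of these shifts was not tested.

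With 1 library left out, hypo-DMPs ranged from 32919 (without shScr 2) to 114655 (without shScr 1), with 56509 without shTet3 1 and 61249 without shTet3 2. Hyper-DMPs ranged from 365 to 1991. Promoters with 3 or more hypo-DMPs ranged from 389 to 1130, and those with 3 or more hyper-DMPs from 6 to 32, with 31 without shScr 1 and 32 without shScr 2. Gene bodies called by limma ranged from 0 to 4628 lower and from 0 to 17 higher. Without shScr 1 these were 4628 and 17, without shTet3 1 they were 8 and 2 (Raver1, Tbc1d15), and without shTet3 2 they were 12 and 1 (Tra2a). In these fits the lone library is assumed to vary like the other group. limma called 0 promoters in each of its alternatives, with 68 to 2259 lower and 67 to 395 higher at an unadjusted p below 0.05. Of 93 named regions, 79 to 89 kept their sign with 1 library left out and 83 of 92 had it in oxBS.

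The labels link libraries of the same number by that number alone. With 2 pairs, their deviations from the group means correlated at r = -0.0282 over CpGs, which cannot decide whether they shared a batch. With a replicate block in the model, the mean difference stayed at -6.77 points, 94278 CpGs were hypo-DMPs and 394 hyper-DMPs, and limma called 0 promoters and 0 gene bodies (366 and 3344 lower, 86 and 15 higher at an unadjusted p below 0.05). The median coverage of 44 to 52 calls limits the precision of single CpGs, and coverage minimums of 5 and 20 gave 93848 and 80849 hypo-DMPs.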
